A study of Mus musculus with 32 samples.

Results

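The 10 genes described here carry peptides from inside the cell to its surface on MHC class I molecules: the transactivator Nlrc5, the heavy chains H2-K1 and H2-D1, the light chain B2m, the peptide transporter genes Tap1 and Tap2, the loading factor Tapbp, and the immunoproteasome genes Psmb8, Psmb9 and Psmb10. Their members in the data are the accessible regions whose midpoint lies in the body of 1 of these genes or, outside any gene body, whose nearest protein-coding gene within 50 kb is 1 of them. In 32 peak lists, 1 per library, 1256 peaks met this rule. By the same rule, applied separately to the midpoint of each consensus region, 46 of the 90465 consensus regions are members. Of these, 22 lie in gene bodies and 24 outside. Consensus regions are stretches, 100 bp or longer, where peaks from 3 or more of the 32 libraries pile up, and a library is said to have a region called when 1 of its peaks covers 50% or more of the region or has 50% of its own length inside it.

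The libraries measure open chromatin by Omni-ATAC-seq, in which a transposase cuts accessible DNA, in dendritic cells (DC) sorted from skin-draining lymph nodes of mice. The sorted subsets are migDC1, migDC2 and DN migDC, which reach the node from the skin (migratory DC), and cDC1 and cDC2, which live in the node (resident DC). Of the 32 libraries, 14 came from CD11cCREpos/IFNgr1flfl mice (Cre-positive) and 14 from CD11cCREneg/IFNgr1flfl mice (Cre-negative). Some of the Cre-positive titles add KO and some of the Cre-negative ones WT. Both kinds of mice carry floxed alleles of Ifngr1, a chain of the interferon-γ receptor, and the Cre recombinase is driven by the CD11c promoter, so that the deletion is restricted to cells in which this promoter is or was active. Each genotype had 3 libraries of cDC1, cDC2, migDC2 and DN migDC and 2 of migDC1. A further 4 libraries of migDC2 came from IFNgr1-/- mice (germline KO, n = 2) and WT mice (germline WT, n = 2). The study asked whether signalling through the receptor acts on chromatin as DC mature. The labels give neither strain nor age, nor whether animals were pooled or gave several subsets. In limma the p-values thus measure the spread between these libraries, which may be partly technical. The exact tests on calls estimate no spread and take the libraries as independent.

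MHC class I molecules show short peptides to CD8 T cells. As background, interferon-γ acts in part through IRF1 to raise transcription of these genes, and NLRC5 binds, with the RFX factors, to a conserved promoter module with X and Y boxes in class I genes, B2m and Tap1. Psmb8, Psmb9 and Psmb10 encode the catalytic subunits that replace the constitutive ones in the immunoproteasome, the TAP1 and TAP2 proteins move its peptides into the endoplasmic reticulum, and tapasin, the product of Tapbp, holds empty class I molecules beside the transporter. Mature DC are known for high class I presentation, and the cDC1 lineage for presenting antigen taken up from other cells.

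By mm10, 7 of the genes lie on chromosome 17: Tapbp at chr17:33919478-33929290 with 4 regions, H2-K1 at chr17:33996012-34000619 with 5, Psmb9 at chr17:34182030-34187330 with 6, Tap1 at chr17:34187556-34197225 with 3, Psmb8 at chr17:34198195-34201454 with none of its own, Tap2 at chr17:34204479-34216321 with 3 and H2-D1 at chr17:35263094-35267497 with 5. Nlrc5 lies at chr8:94434335-94527272 with 17 regions, Psmb10 at chr8:105935728-105938392 with 1 and B2m at chr2:122147687-122153082 with 2. Of the 46 regions, 17 were called in all 28 floxed libraries and are compared by strength and width, and 28 with at least 3 calls and at least 3 libraries lacking one are compared by presence. A single region, H2-K1 at 34003371, met neither condition, with calls in 14 migratory and 12 resident libraries. Regions are named here by their first base.

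The promoters of the class I chains and of Tap1 are shown as examples. Peaks over them were called in all 32 libraries, were stronger in migratory DC and, for the 3 chains, also wider. The starts of Tapbp and Psmb10 also had peaks in all 32 libraries that were stronger in migratory DC, but their promoters are not printed. Each sequence is 300 bases of RefSeq assembly GRCm38.p6 (250 before and 50 after the annotated start), read 5′ to 3′ on the gene's strand. Capitals mark matches on either strand to a Y box (CCAAT), the core of an X2 box (TGACG), an interferon-stimulated response element (GAAANNGAAA), a gamma-activated site (TTCNNNGAA) or an NF-κB consensus.
H2-K1, chr17:34000298-34000597, minus strand: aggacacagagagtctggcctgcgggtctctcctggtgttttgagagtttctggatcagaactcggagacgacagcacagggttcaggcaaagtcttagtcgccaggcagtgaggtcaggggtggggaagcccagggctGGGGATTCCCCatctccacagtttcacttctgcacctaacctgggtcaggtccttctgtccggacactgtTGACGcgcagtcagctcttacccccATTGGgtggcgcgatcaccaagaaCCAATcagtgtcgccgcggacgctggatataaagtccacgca
H2-D1, chr17:35262844-35263143, plus strand: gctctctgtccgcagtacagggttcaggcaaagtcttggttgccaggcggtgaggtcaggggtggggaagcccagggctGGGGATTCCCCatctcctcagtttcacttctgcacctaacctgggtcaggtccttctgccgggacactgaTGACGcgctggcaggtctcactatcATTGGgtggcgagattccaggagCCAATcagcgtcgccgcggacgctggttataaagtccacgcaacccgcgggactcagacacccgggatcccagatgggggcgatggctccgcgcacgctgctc
B2m, chr2:122147437-122147736, plus strand: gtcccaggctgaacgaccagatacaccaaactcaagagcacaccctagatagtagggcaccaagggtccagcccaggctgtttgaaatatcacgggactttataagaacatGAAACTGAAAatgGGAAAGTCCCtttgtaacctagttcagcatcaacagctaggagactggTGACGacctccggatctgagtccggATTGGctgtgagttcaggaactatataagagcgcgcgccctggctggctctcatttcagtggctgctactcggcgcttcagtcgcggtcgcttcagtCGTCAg
Tap1, chr17:34187306-34187605, plus strand: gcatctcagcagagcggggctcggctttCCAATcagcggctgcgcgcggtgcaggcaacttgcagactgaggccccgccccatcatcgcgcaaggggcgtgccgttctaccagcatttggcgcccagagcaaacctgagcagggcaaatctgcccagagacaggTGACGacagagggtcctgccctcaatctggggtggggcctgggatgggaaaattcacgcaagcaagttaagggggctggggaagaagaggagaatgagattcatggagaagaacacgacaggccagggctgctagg
The H2-K1 and H2-D1 promoters share an identical stretch of 47 bases and carry matches in the same order: an NF-κB match, then an X2 core, then a pair of Y boxes on opposite strands. The start that the table uses for H2-K1, 34000347, lies inside the gene's annotated span, so the matches stand closer to it than those of H2-D1 do to theirs. B2m has the interferon-stimulated element at bases -139 to -130 from its start, an NF-κB match, an X2 core and a Y box before the start, and a second X2 core after it. The Tap1 window overlaps that of Psmb9, which starts back to back with it, by 275 bases and holds 1 Y box and 1 X2 core. Of the 8 members with a promoter in the table (Nlrc5 and Tap2 have no entry), 6 held a Y box, 5 an X2 core, 3 an NF-κB match, 1 the interferon-stimulated element and 1, Psmb8, a gamma-activated site. Among all 32851 promoters of the table, the shares were 37.4%, 20.8%, 8.46%, 3.44% and 8.30% in the same order. Of the promoters not printed, that of Tapbp held 2 Y boxes and no X2 core, and that of Psmb10 held no match. A match describes letters, not binding, and the X2 core lies in a longer site that was not searched.

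The lists held 32705 to 75106 peaks, with no read counts, so the depth of the libraries is unknown. The median peak width was 389 bp in 1 cDC1 library (Cre-negative replicate 2) and 401 bp in 1 DN migDC library (Cre-positive replicate 1), against 469 to 671 bp in the other 30 libraries. Regions of 5 migratory DC marker genes, Ccr7 and Fscn1 among them, were called at 49.0% to 95.9% in migratory libraries and 28.6% to 49.0% in resident ones. Regions of 5 cDC1 marker genes were called at 70.6% to 90.4% in cDC1 and 18.4% to 36.8% in cDC2, whereas those of 5 cDC2 marker genes overlapped between cDC2 (42.1% to 73.7%) and cDC1 (40.4% to 64.9%). Regions of T cell marker genes were called at 51.7% to 82.8% in migratory libraries and 13.8% to 58.6% in resident ones, and those of B cell marker genes at 18.9% to 78.4% and 5.41% to 43.2% in the same order. At Ifngr1 itself, the numbers of Cre-positive and Cre-negative libraries called differed by at most 2 of 14 in each of its 16 regions. The labels do not say which part of the gene is deleted, so the lists do not check the deletion. Identical peaks made up at most 0.656% of the shorter list in any pair of replicates.

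Class I regions were called more often in migratory than in resident DC, as the plot of class I regions against all regions shows. The number called of 46 was 29, 33, 35 and 36 in migDC1, and ran from 33 through a median of 37 to 40 in migDC2 and from 34 through 34.5 to 39 in DN migDC. It ran from 21 through 26 to 27 in cDC1 and from 19 through 20 to 26 in cDC2. No resident library reached the lowest of these migratory ones. The percent of all 90465 regions called was 45.2% to 60.8% in migDC1, 56.5% to 73.8% in migDC2, 58.9% to 71.5% in DN migDC, 53.0% to 71.4% in cDC1 and 39.9% to 59.2% in cDC2, so there the migratory and resident libraries overlapped.

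**Figure D1:**
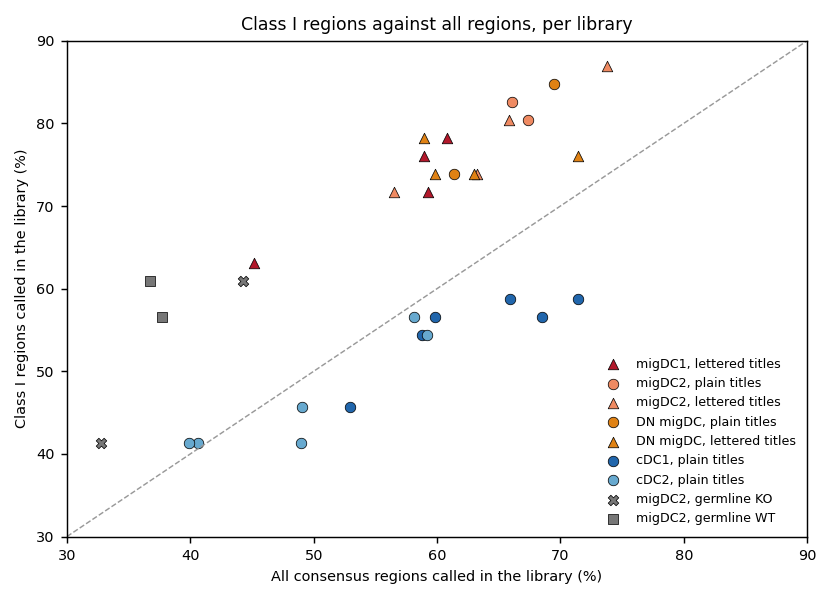
Percent of the 46 class I regions called in each library (vertical axis) against the percent of all consensus regions called in the same library (horizontal axis), with 1 point per library and a dashed line of equality. The 16 floxed migratory libraries lie above the line at 63.0% to 87.0% of class I regions, as do the 4 germline ones at 41.3% to 60.9%, while the resident libraries hold 41.3% to 58.7% on or near the line or below it.

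Tested region by region across the 28 floxed libraries (16 migratory, 12 resident), 13 of the 28 class I regions that varied enough to be tested were called more often in migratory DC and 2 less often, by an exact conditional test stratified by genotype with Benjamini-Hochberg adjustment over all 61445 tested regions at a threshold of 0.05. Over all tested regions, 25% were called more often and 15.1% less often. The median difference in the share of libraries called was 44.8 percentage points over the class I regions and 10.4 over all tested regions. The 13 regions belong mostly to Nlrc5 (8 of 13 tested), then to H2-K1 (2 of 3), Tapbp (2 of 3) and B2m (1 of 1). The 2 regions belong to Psmb9 (1 of 3 tested) and Tap1 (1 of 1). The varied regions of H2-D1 and Tap2 did not pass, and the region of Psmb10 was called in every library. Taken as lists, T and B cell marker regions were called more often in the same libraries, as given above. A region of the T cell marker Cd3e at 45002140 was called in all 16 migratory libraries and 0 of 12 resident ones. Another Cd3e region, at 44994626, was called in 4 cDC1 libraries and in no other floxed library. The median share of B cell marker regions called was 71.6% in DN migDC, 41.9% in migDC2 and 39.2% in migDC1, against 35.1% in cDC1 and 16.2% in cDC2. The part of these marker genes in the counts of class I regions was not tested. Since resident libraries all have plain numbered titles and most migratory ones lettered titles, the count was repeated within plain numbered titles (4 migratory, 12 resident): 11 of 25 tested class I regions were called more often, 10 of them among the 13, and none less often, where 21.3% and 2.36% of all 45981 tested regions were. With each list cut to its 38455 strongest peaks, 9 class I regions were called more often and 1 less often of 14 tested, while all regions gave 9856 more and 11695 less of 36025 tested.

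**Figure D2:**
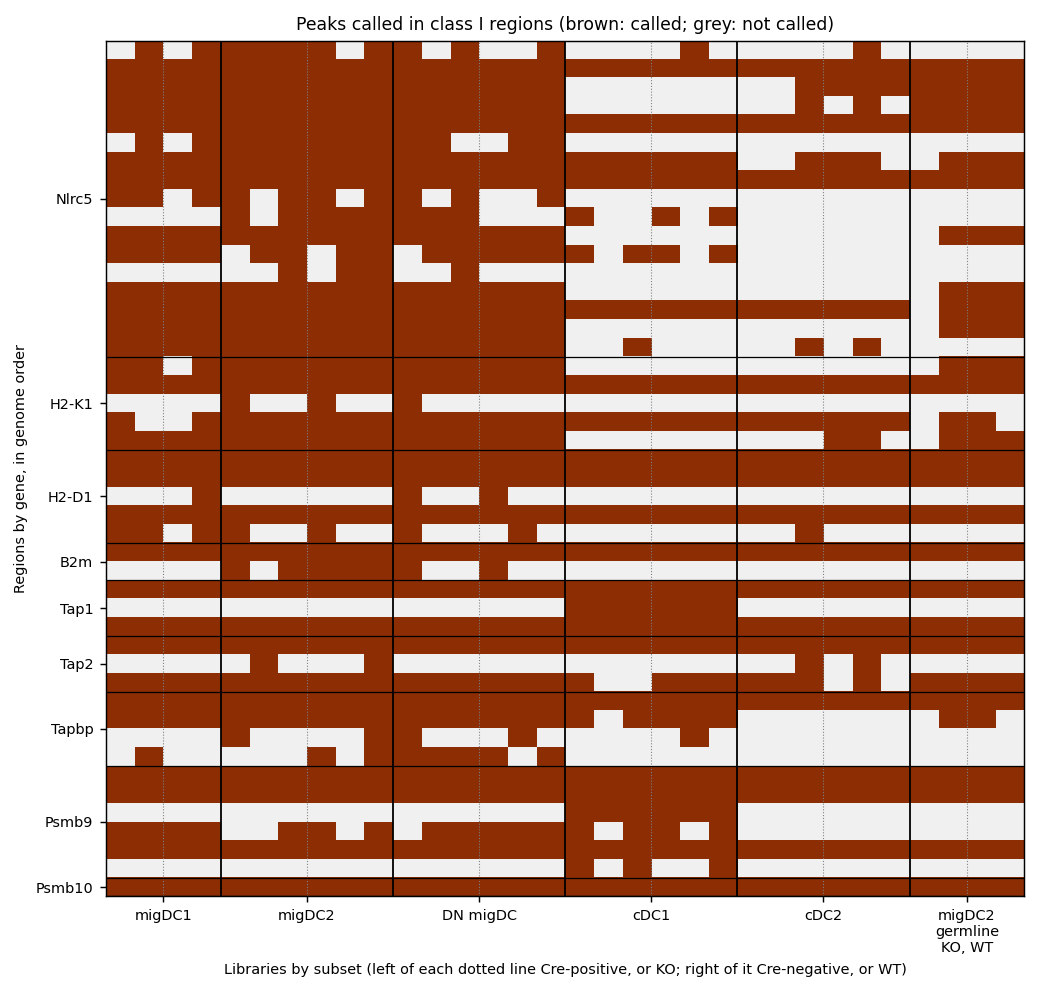
Calls in the 46 class I regions (rows, grouped by gene in genome order) in the 32 libraries (columns, grouped by subset). Brown cells are called and grey cells are not. The blocks of brown in the 3 migratory subsets beside grey in cDC1 and cDC2 are mostly in Nlrc5, and a row each of Tap1 and Psmb9 is brown in the 6 cDC1 libraries alone.

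Nlrc5 had the most regions, 17 along chr8:94415284-94528791 of mm10, and the number called per floxed library separated the stages. It was 14 in the median migDC1 library, 15 in migDC2 and 14.5 in DN migDC, against 7 in cDC1 and 5.5 in cDC2. The region over the low-coordinate end of the gene (94433146 to 94434718) was called in all 32 libraries. The regions at 94453887, 94485209 and 94493105 inside the gene were each called in 16 of 16 migratory libraries and 0 of 12 resident ones (adjusted p = 2.07e-06, exact test, for each). The other 5 Nlrc5 regions that passed were called in 10 to 16 of 16 migratory libraries and 0 to 4 of 12 resident ones, and none was called less often. A region outside the gene at 94426858 was called in all 16 migratory libraries, in 4 of 6 cDC2 libraries and in no cDC1 library. With all RefSeq genes, the regions at 94426858, 94429226 and 94433146 were assigned to the entry 9330175E14Rik instead of Nlrc5.

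**Figure D3:**
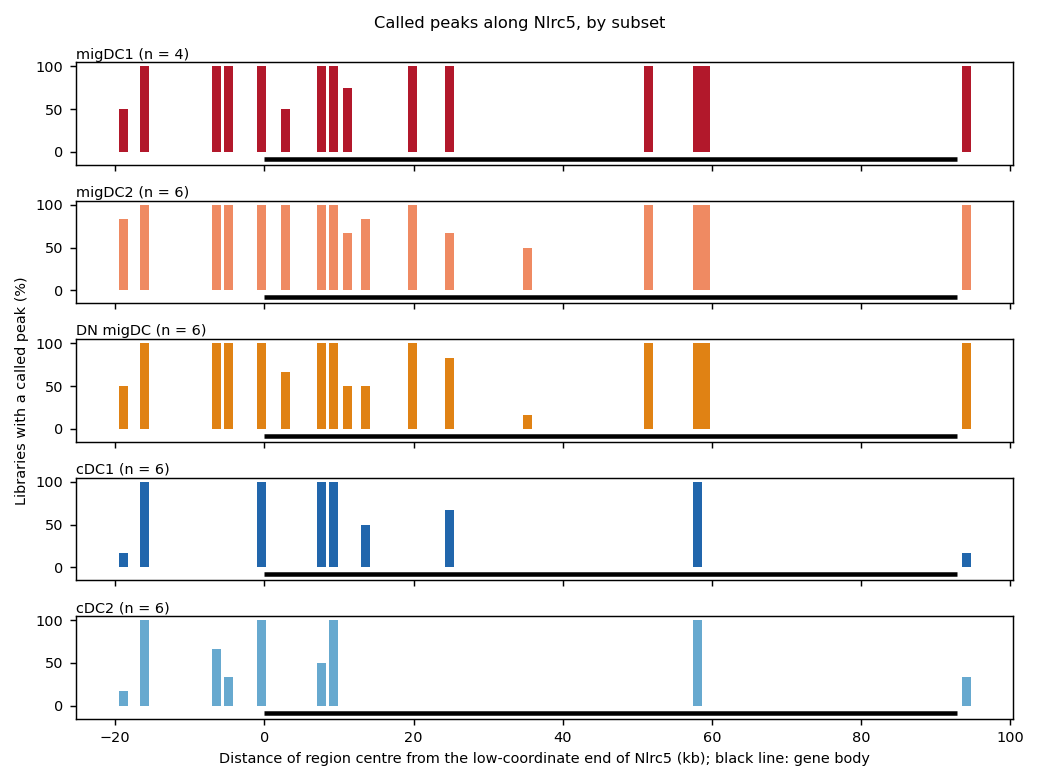
Percent of the floxed libraries of each subset with a called peak (bars) in each of the 17 Nlrc5 regions, placed by distance of the region's centre from the low-coordinate end of the gene in kb, with the gene body as a black line. The 3 migratory panels share bars at 100% deep in the gene where the cDC1 and cDC2 panels have none.

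Regions called in all 28 floxed libraries were compared by strength. Peak signal, a value of the authors' peak caller, was ranked among the 23390 regions called in each of these libraries, so that every library has the same number of ranks, and expressed as a percentile in which 100 is the strongest. Of the 17 class I regions in this set, 12 stood at a higher percentile in migratory DC and 2 at a lower one (limma, Benjamini-Hochberg adjustment over 23390 regions), where 30.6% of all regions stood higher and 38.7% lower. The median difference was 4.29 points over the class I regions and -0.95 over all. Since a region had to be called in every library to be ranked, the regions called in migratory DC alone are not among them.

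The largest differences in percentile were at H2-D1 and Nlrc5, away from the gene starts. A region 7683 bp from H2-D1 (35274281 to 35276080) stood at 55.6, 73.1 and 88.6 (lowest, median and highest) in migratory libraries, against 11, 20.9 and 29.2 in resident ones, a difference of 53.2 ± 2.17 points (SE; adjusted p = 2.69e-17, limma). The stages did not overlap. A RefSeq pseudogene, Gm18733, lies nearer to it than H2-D1. The region of Nlrc5 at 94417052, 16117 bp outside the gene and nearer to the pseudogene Ap3s1-ps2, stood at 73.2, 81.4 and 89.1 in migratory libraries, against 15.7, 40.6 and 49.97 in resident ones, a difference of 42.8 ± 2.57 points (SE; adjusted p = 7.69e-14, limma). The Nlrc5 region at 94442920 inside the gene stood at 29.95, 46.3 and 59.7 in migratory libraries, against 2.56, 5.94 and 10.9 in resident ones, so that it was among the weakest shared regions of resident DC. At the low-coordinate end of Nlrc5 the difference was smaller, 14.2 ± 1.79 points (SE; adjusted p = 1.13e-07, limma), with 53.1 to 68.7 in migratory and 38.0 to 54.0 in resident libraries.

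**Figure D4:**
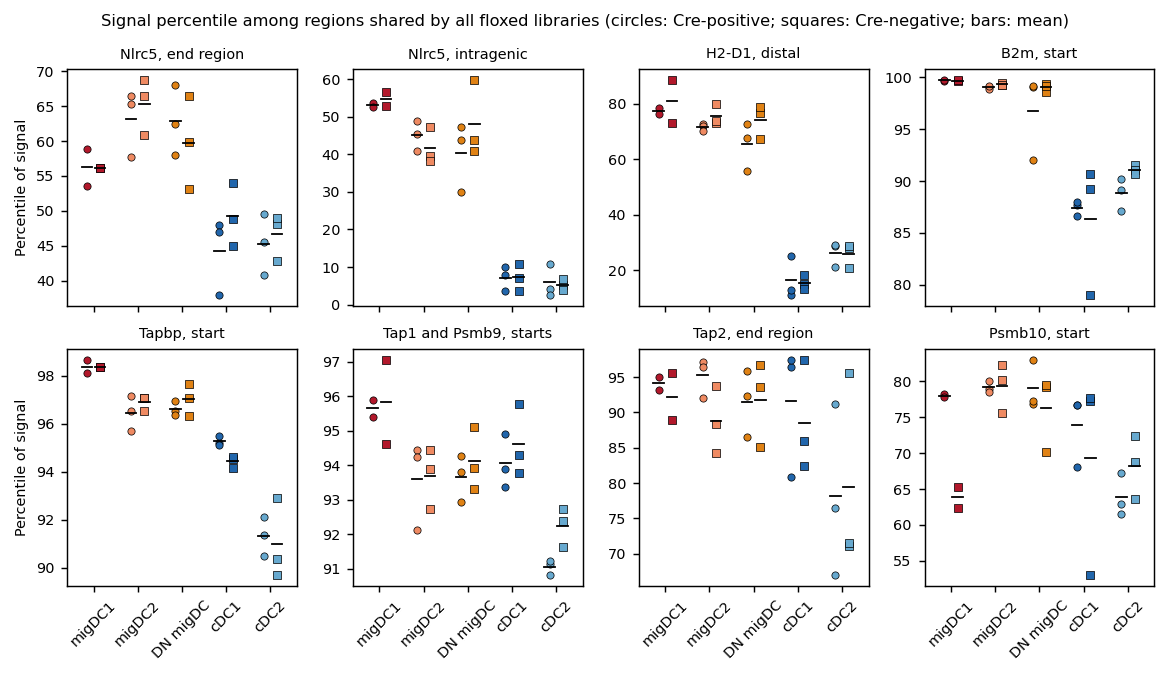
Signal percentile (vertical axis, 100 is the strongest of 23390 shared regions; each panel has its own scale) of 8 class I regions in the 28 floxed libraries, by subset, with circles for Cre-positive libraries, squares for Cre-negative ones and bars for means. The Nlrc5, H2-D1, B2m and Tapbp panels separate the 3 migratory subsets from the 2 resident ones, apart from a small overlap (53.1 against 54.0) at the low-coordinate end of Nlrc5, while Tap1 with Psmb9, Tap2 and Psmb10 overlap and are lowest in cDC2 at Tap1 and Tap2.

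The 3 class I chains had strong peaks at their starts in all cells, and these peaks were both stronger and wider in migratory DC. H2-K1, the heavy chain of the K molecule, had a peak that ranked between 10 and 144 in the migratory lists and between 71 and 519 in the resident ones. Its percentile differed by 1.12 ± 0.17 points (SE; adjusted p = 1.59e-06, limma). The peak over H2-K1 was 2760 bp (lowest), 10161.5 bp (median) and 10819 bp (highest) wide in migratory libraries, against 2173, 3135.5 and 10116 bp in resident ones, a 2.15-fold difference (log2 difference 1.10 ± 0.23 SE; adjusted p = 0.00072, limma on log2 width). All 6 cDC1 libraries lay at 2173 to 3170 bp and all 6 migDC2 libraries at 10118 to 10812 bp, whereas the other 3 subsets held both narrow and wide peaks. Where a library had several peaks in a region, the width is that of the strongest one. All peaks assigned to H2-K1 covered a median of 8834 bp in cDC1 and 10894.5 bp in cDC2. The same median was 14134 bp in migDC1, 14500.5 bp in migDC2 and 13762.5 bp in DN migDC. Within plain numbered titles the log2 difference in H2-K1 peak width was 1.08 (adjusted p = 0.078, limma). B2m, the light chain that every class I molecule needs, had a peak of 1876, 4231 and 5886 bp in migratory libraries, against 862, 2184.5 and 2301 bp in resident ones (2.19-fold, log2 difference 1.13 ± 0.14 SE; adjusted p = 1.22e-06, limma). The narrowest migratory one, of 1876 bp, was the DN migDC library of narrow peaks, and it is the only migratory library within the resident range. The B2m percentile was 92.0, 99.2 and 99.7 in migratory libraries, against 79.0, 89.2 and 91.5 in resident ones, with no overlap (10.5 ± 0.90 points SE; adjusted p = 9.29e-11, limma).

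The peak over the start of H2-D1, the heavy chain of the D molecule, was 2354, 2804 and 10975 bp wide in migratory libraries, against 2190, 2408 and 2601 bp in resident ones (1.51-fold; adjusted p = 0.0231, limma). The 4 migDC1 libraries lay at 2354, 2560, 2786 and 2822 bp, and wider H2-D1 peaks than these were seen in migDC2 and DN migDC alone. Of the regions beside the chains, H2-K1 had one at 33988069 with calls in 15 of 16 migratory libraries and 0 of 12 resident ones (adjusted p = 1.08e-05, exact test) and one at 34005391 in 16 of 16 and 2 of 12 (adjusted p = 6.10e-05, exact test), nearer to the RefSeq entries AA388235 and Gm31082 than to H2-K1. The second B2m region, at 122152043, was called in 7 of 16 migratory libraries, 5 of them migDC2 and 2 DN migDC, and in 0 of 12 resident ones (adjusted p = 0.0297, exact test). This B2m call was lost in 19 of the 28 runs that leave out 1 library. H2-K1 and H2-D1 are close copies of each other, and the labels do not say how reads that map to several places were treated, so values there are less certain than at B2m.

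**Figure D5:**
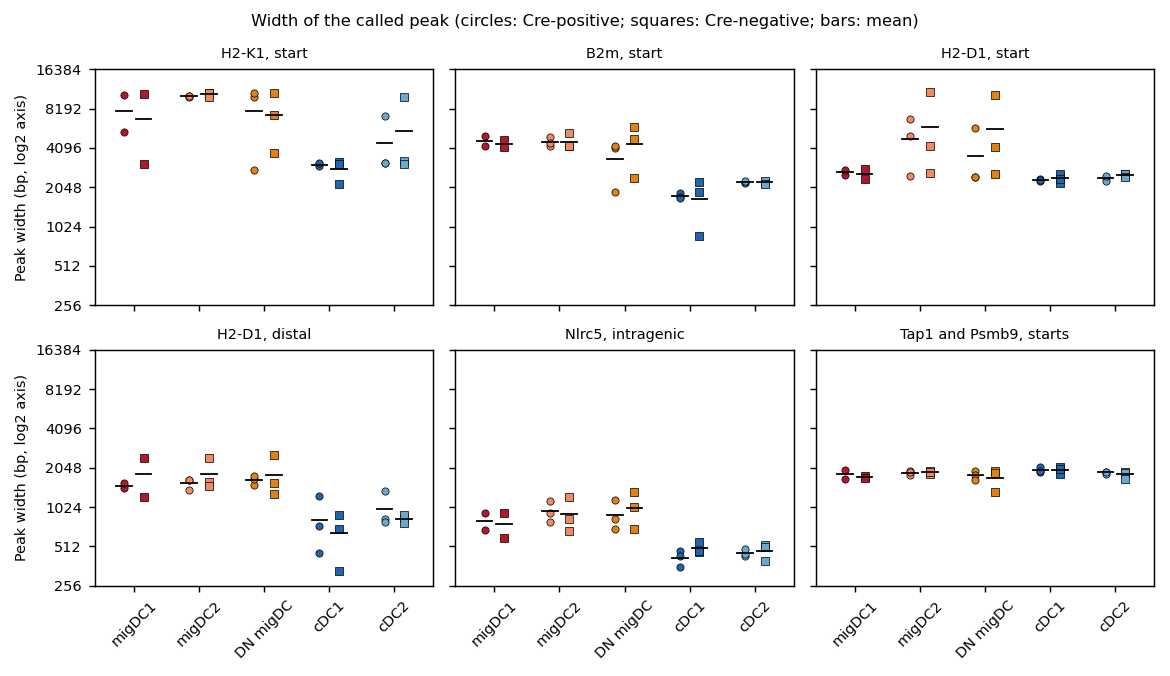
Width of the called peak in bp (vertical axis, log2 scale, the same in each panel) at 6 class I regions in the 28 floxed libraries by subset, with circles for Cre-positive libraries, squares for Cre-negative ones and bars for means. H2-K1 and B2m peaks are wide in most migratory libraries and narrow in cDC1, wide H2-D1 peaks appear in migDC2 and DN migDC, and the peak shared by Tap1 and Psmb9 stays near 1332 to 2073 bp in all subsets.

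Among all 17 ranked class I regions, 7 were wider in migratory DC and 2 narrower by limma on log2 width, where 10.7% of the 23390 regions were wider and 26.3% narrower. The 7 are the starts of H2-K1, H2-D1 and B2m, the distal H2-D1 region (2.14-fold) and 3 Nlrc5 regions (1.21-fold to 1.88-fold). The median log2 difference over all regions was -0.10. Within plain numbered titles 4 of the 17 were wider and 0 narrower, where 4.89% and 2.73% of all regions were.

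At the genes of peptide transport and loading, the start regions of Tap1 and Tapbp and the end region of Tap2 were higher by 1.43 to 7.85 points in migratory DC. The region over the high-coordinate end of Tap1 was lower without passing, and is given below with Psmb8. Tap1 and Psmb9 share the region over their starts, which stood at 92.1, 94.2 and 97.1 in migratory libraries, against 90.8, 93.1 and 95.8 in resident ones (1.43 ± 0.35 points SE; adjusted p = 0.00079, limma), with overlapping stages. Within plain numbered titles this Tap1 difference was 0.11 points (adjusted p = 0.864, limma). The Tap2 region at the low-coordinate end of that gene stood at 84.2, 93.4 and 97.2 in migratory libraries, against 67, 84.2 and 97.4 in resident ones (7.85 ± 2.70 points SE; adjusted p = 0.0121, limma), where the 4 lowest are cDC2 libraries. Within plain numbered titles the Tap2 difference was 9.09 points with an adjusted p of 0.152 (limma). Tapbp stood at 95.7, 97.1 and 98.7 in migratory libraries, against 89.7, 93.5 and 95.5 in resident ones, without overlap (4.29 ± 0.30 points SE; adjusted p = 2.04e-12, limma). Inside Tapbp, the region at 33923993 had calls in all 16 migratory libraries but only 5 of 12 resident ones, all 5 being cDC1 (adjusted p = 0.0040, exact test), and the region at 33925764 in 8 of 16 and 0 of 12 (adjusted p = 0.0264, exact test). The call at 33923993 was lost within plain numbered titles (adjusted p = 0.276, exact test). The call at 33925764 was lost with a signal of at least 400 (adjusted p = 0.318) and without the 2 libraries of narrow peaks (adjusted p = 0.054, exact test).

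Regions of the immunoproteasome genes differed in both directions. The region over the start of Psmb8, which lies nearest to the end of Tap1 and is counted there, stood at 52.2, 90.7 and 93.8 in migratory libraries, against 88.3, 92.9 and 96.0 in resident ones, and did not pass, the value of 52.2 being the DN migDC library of narrow peaks (-6.07 ± 2.85 points SE; adjusted p = 0.0609, limma). It fell by 4.42 points and passed (adjusted p = 0.0050, limma) when the 2 libraries of narrow peaks were left aside. Psmb10 stood at 62.3, 78.4 and 82.9 in migratory libraries, against 53.1, 68.4 and 77.7 in resident ones (7.11 ± 2.27 points SE; adjusted p = 0.0073, limma), with overlap. Of the regions that face away from Tap1 beside Psmb9, the one at 34170626 was weaker in migratory libraries, at 1.71, 29.3 and 43.9 against 29.9, 57.2 and 64.9 in resident ones (-31.3 ± 4.28 points SE; adjusted p = 4.12e-07, limma), and so was the one at 34173532 (-4.71 ± 1.49 points SE; adjusted p = 0.0069, limma). The Psmb9 region at 34180440, between them and the gene, was stronger (14.5 ± 3.08 points SE; adjusted p = 0.00018, limma). The regions called less often in migratory DC, Psmb9 at 34178939 and Tap1 at 34190929, were each called in 6 of 6 cDC1 libraries and in none of the other 26 libraries (adjusted p = 0.0106, exact test, 16 migratory against 12 resident).

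Matched by lineage, the pattern of presence held on both sides for Nlrc5. Between migDC1 and cDC1 (4 and 6 libraries), 6 of 15 tested class I regions were called more often in migDC1, 5 in Nlrc5 and 1 in H2-K1, and 2 less often, where 18.5% and 16.8% of all tested regions were. Leaving out any 1 of the 4 migDC1 libraries, the counts were 0 in both directions, for class I regions and for all regions, where the smallest p still possible is 0.025 before adjustment. The 8 class I regions that passed keep a difference of 100 percentage points in each of these runs. All migDC1 titles are lettered and all cDC1 titles plain numbered, so title series and subset cannot be told apart there. Between migDC2 and cDC2 (6 and 6), 8 of 19 tested regions were called more often in migDC2, 5 in Nlrc5 and 1 each in B2m, Tapbp and H2-K1, and 0 less often, where 37.2% and 4.02% of all tested regions were, so the share of class I regions is near that of all regions. The Nlrc5 regions at 94453887, 94485209 and 94493105 passed in both. Between cDC2 and cDC1, 0 of 11 tested regions were called more often in cDC2 and 2 less often, the same Psmb9 and Tap1 regions as above, where 2.16% and 13.4% of all tested regions were. Without cDC1 Cre-negative replicate 2 or cDC1 Cre-positive replicate 2, 5 class I regions were called less often in cDC2. Between migDC1 and migDC2 and between DN migDC and migDC2, none of 8 and none of 11 tested regions passed in either direction, and 0% of all regions did, by the exact test. No class I region had an unadjusted p under 0.05 in either of these comparisons. The smallest unadjusted p at any tested region was 0.01 and 0.005 in the same order, which did not pass after adjustment. These counts thus do not show that the migratory subsets are alike.

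In percentile, cDC2 differed from cDC1 at 6 of 17 class I regions: 2 were higher and 4 lower by limma, where 19.2% and 19.3% of all regions were. Tapbp was lower in cDC2 by 3.70 ± 0.45 points (SE; adjusted p = 2.34e-07), at 89.7 to 92.9 in cDC2 against 94.1 to 95.5 in cDC1 without overlap. Tap2 was lower by 11.3 ± 4.05 points, the start region of Tap1 and Psmb9 by 2.68 ± 0.52 points and the Psmb9 region at 34173532 by 12.7 ± 2.23 points (SE). The distal H2-D1 region was higher in cDC2 by 10.2 ± 3.25 points and H2-K1 by 0.80 ± 0.25 points (SE). Between migDC1 and migDC2, 5 regions were higher and 1 lower, where 16.4% and 12.9% of all regions were. The higher ones in migDC1 were Tapbp, the start of Tap1 and Psmb9, the Psmb9 regions at 34173532 and 34180440, and the Nlrc5 region at 94442920, and the lower one was the low-coordinate end of Nlrc5 (-8.06 ± 3.01 points SE; adjusted p = 0.0451, limma). Tapbp, Tap1 with Psmb9, and the Psmb9 region at 34173532 were thus higher in the cDC1 lineage at both stages. All 4 migDC1 libraries have lettered titles and 2 of the 6 migDC2 libraries plain ones, and title series is no term of this fit. At the Psmb9 region the migDC1 libraries stood at 82.1 to 89.2, against 69.7 to 76.7 in lettered and 66.3 and 68.0 in plain migDC2 libraries.

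The step from resident to migratory cells itself differed between lineages at 3 of the 17 regions, by an interaction term in limma, where 13.2% of all regions had a larger step in the cDC1 lineage and 11.2% a smaller one. The distal H2-D1 region was 63.3 ± 3.63 points higher in migDC1 than in cDC1 and 47.6 ± 3.25 points higher in migDC2 than in cDC2 (SE; interaction 15.7 points, adjusted p = 0.0199). Psmb10 differed by -0.68 ± 3.80 points between migDC1 and cDC1 and by 13.2 ± 3.40 points between migDC2 and cDC2 (SE; interaction -13.9 points, adjusted p = 0.0480). Tapbp differed by 3.53 ± 0.51 points between migDC1 and cDC1 and by 5.53 ± 0.45 points between migDC2 and cDC2 (SE; interaction -2.01 points, adjusted p = 0.0324).

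Between Cre-positive and Cre-negative mice, the comparison that bears on the interferon-γ receptor in DC, no class I region passed in any of the 3 measures. In presence, 0 of 28 tested regions were called more or less often in the 14 Cre-positive than in the 14 Cre-negative libraries (exact test stratified by subset), 0% of all 61445 tested regions were, and no class I region had an unadjusted p under 0.05. The largest difference at a class I region was 14.3 percentage points, or 2 libraries of 14. In percentile, 0 of 17 regions passed, where 0.0385% of all regions were higher and 0.0214% lower in Cre-positive libraries, and the differences ran from -3.01 to 4.41 points (smallest unadjusted p = 0.137, limma). The 95% intervals at the starts were, for H2-K1 (-0.36 to 0.32 points), H2-D1 (-0.78 to 0.12), B2m (-2.61 to 1.05), Tapbp (-0.55 to 0.69) and Tap1 with Psmb9 (-1.23 to 0.20). They were -4.82 to 2.49 points at the low-coordinate end of Nlrc5, -2.01 to 7.22 at Psmb10, -3.50 to 7.48 at Tap2 and -4.35 to 13.2 at the H2-D1 region at 35257240. The scale ends at 100, so short intervals at regions near its top do not bound a change in accessibility tightly. In width, 0 of 17 regions passed, where 0.00855% of all regions were wider and 0% narrower. The Nlrc5 regions at 94453887, 94485209 and 94493105 were called in all 8 Cre-positive and all 8 Cre-negative migratory libraries. A missed threshold does not show that the genotypes are alike, and these values concern peak strength within a list, not absolute accessibility.

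The germline migDC2 libraries, 2 of each genotype, had lists of 32705 to 42499 peaks and are described without a test. The number of class I regions called was 19 and 28 in germline KO, against 28 and 26 in germline WT. The library with 19, germline KO replicate 1, also had the shortest list of all, 32705 peaks, and of the 4 germline libraries it alone lacked calls in the Nlrc5 regions at 94453887, 94485209 and 94493105. The H2-K1 peak was 3685 and 10712 bp wide in germline KO, against 6870 and 10698 bp in germline WT. The H2-D1 start peak was 2493 and 2711 bp wide in germline KO, against 5010 and 10936 bp in germline WT. The B2m peak was 2223 and 4833 bp wide in germline KO, against 4746 and 4858 bp in germline WT. With 2 libraries each, no difference between the genotypes is drawn from these widths, and how often widths separate over all regions was not counted.

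The titles of migDC2 and DN migDC libraries form 2 series, plain numbered (2 of each subset) and lettered (4 of each), whose meaning the labels do not give. Class I regions called were 37 and 38 in plain against 33 to 40 in lettered migDC2, and 34 and 39 in plain against 34 to 36 in lettered DN migDC. By the exact test stratified by subset, 0 of 11 tested class I regions passed in either direction, 0% of all tested regions did, and 3 class I regions had an unadjusted p under 0.05. So did 19 of 58 tested regions of the other pathway genes described below, and the share over all tested regions was not counted. The 3 class I regions, named after their values were seen, are the second B2m region (4 of 4 plain, 3 of 8 lettered), the Nlrc5 region at 94458661 (1 of 4 plain, 8 of 8 lettered) and the H2-K1 region at 34002866 (3 of 4 plain, 0 of 8 lettered). In percentile, where 7.87% of all regions were higher and 13.2% lower in plain libraries, 0 of the 17 class I regions were higher and 1 was lower, the Psmb9 region at 34173532 (-6.96 ± 2.08 points SE; adjusted p = 0.0379, limma). In that Psmb9 region the plain libraries stood at 66.3, 68.0, 64.8 and 73.3, against 69.7 to 80.9 in the 8 lettered ones, and the call was lost when the 2 libraries of narrow peaks were left aside. The count of lower class I regions changed in 10 of the 12 runs that leave out 1 library, and ran from 0 to 2. In width, 0 of 17 regions passed, where 0.423% of all regions were wider and 0.00855% narrower in plain libraries.

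Other genes of the pathway, 28 in all, were taken from a list of transcription factors, constitutive proteasome subunits, loading and trimming factors and further class I genes. They had 193 regions, of which 132 were tested between migratory and resident DC. Of these, 45 were called more often in migratory DC and 8 less often (exact test), which is 34.1% and 6.06% of those tested. Over all 61445 tested regions, 25% were called more often and 15.1% less often. Passing regions were more often called alone in 7 genes, less often called alone in 2, in both directions in 4, and 15 genes had none. Irf1, the interferon-induced factor that acts on class I promoters, had 9 of 14 tested regions called more often and 0 less often. Irf2, which binds the same element, had 8 more and 2 less of 24. Psmb7, the constitutive counterpart of Psmb10, had 5 called more often and 1 less often of 10. Among further class I genes, Cd1d1 had 5 of 11 and H2-T23 1 of 4 called more often, H2-Q4 4 more and 1 less of 10, and H2-Q6 0 more and 2 less of 8. The H2-Q genes are near-identical copies, so peaks there may rest on reads that fit several places.

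Among the genes whose share of regions called per library was most like that of Nlrc5 were Irf1 (Pearson r = 0.91), Psmb7 (r = 0.86), H2-K1 (r = 0.85) and H2-T23 (r = 0.80), over 28 floxed libraries and among the 10 members and the 28 other genes. These are descriptions: the libraries fall into a migratory and a resident cluster, the lists differ in length, and the genes have 5 to 23 regions each.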

How the data were processed

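Peaks came from the submitters' lists, 1 per library; Bowtie2, deepTools and Genrich are named with build mm10 per the submitters' processing notes, while their versions, settings, read filters and any shift of the transposase's cuts are not stated there or in the labels. The peak signal deposited by the authors served to rank the peaks of each list and, in 1 alternative, as a minimum of 400, and the deposited −log10 p value at each peak only to order peaks of equal signal. The lists give no counts, so depth is unknown.

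Consensus regions were assigned to protein-coding genes in RefSeq's table of GRCm38.p6, which shares its coordinates with mm10. Regions with at least 3 calls and at least 3 libraries lacking a call were tested for presence by an exact, two-sided conditional test. Percentile and log2 width were fitted with limma 3.58.1 in R 4.3.3 (trend), with subset and genotype as terms. Intervals are 95% with 22 residual degrees of freedom. The scripts, in Python 3.11.15, were tested on simulated data. Groups came from the labels. Up to 4 regions per gene and kind of test are given with values (the start, then those passing between stages by adjusted p), all 10 genes are named, and up to 8 other pathway genes by smallest adjusted p, of which 1 is not reported here. The genes, lists and rules were chosen with earlier results of these data known. Alternatives were equal list length, a higher signal minimum, other overlaps and gene assignments, no presence filter, log2 rank, centred width, plain numbered titles and leaving out each library; leaving aside the 2 libraries of narrow peaks was chosen after seeing the data.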

Additional observations from a re-analysis of the deposited data

Results flagged for a closer look

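The step from resident to migratory cells differed between the lineages at 3 of the 17 class I regions in a test of that difference (the interaction term in limma), 1 with a larger and 2 with a smaller step in the cDC1 lineage. Of all 23390 regions, 13.2% and 11.2% passed the same test in these directions, together a larger share than that of the class I regions. The 3 are the distal H2-D1 region at 35274281 (15.7 points of percentile), Psmb10 at its start (-13.9 points) and Tapbp at its start (-2.01 points). In Psmb10 the 4 migDC1 libraries stood at 78.2 and 77.8 in Cre-positive mice and at 62.3 and 65.4 in Cre-negative ones, a split noticed after the values were seen. The test of genotype by subset (limma) gave an unadjusted p of 0.163 at Psmb10 and passed at 0 of 17 class I regions, with 0 at an unadjusted p under 0.05. The lowest cDC1 value at Psmb10, 53.1, is the cDC1 library of narrow peaks.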

How the results depend on the processing

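The count of 13 class I regions called more often in migratory DC stayed at 9 to 14 under every alternative run and at 12 to 14 when 1 library was left out. The regions behind this count changed: with equal list length 7 of the 13 were among those that passed, and H2-K1 at 34005391 was not. With a signal of at least 400, the Nlrc5 regions at 94436984, 94445133 and 94528158 did not pass. Within plain numbered titles the Nlrc5 regions at 94426858 and 94528158 did not. The count of 2 called less often was 1 with equal list length or any overlap of 1 bp and 0 with a signal of at least 400 or plain numbered titles. For migDC1 against cDC1, the 2 called less often became 1 with equal list length or any overlap and 0 with the higher signal or all regions tested, and the 6 called more often became 0 with all regions tested and 3 with all RefSeq genes; leaving out 1 library gave 0 to 7 more and 0 to 2 less, the 0 arising without a migDC1 library, where the smallest p possible is 0.025. For migDC2 against cDC2 the 8 became 5 with equal list length. For cDC2 against cDC1 the 2 called less often became 1 with equal list length and 0 with the higher signal or all regions tested, and 2 to 5 without 1 library. In percentile between title series, 1 region was higher with log2 of the rank, 0 were lower without the 2 libraries of narrow peaks, and leaving out 1 library gave 0 to 1 higher and 0 to 2 lower. In width, migratory against resident gave 4 wider and 0 narrower within plain numbered titles, 4 narrower without the 2 libraries of narrow peaks and 2 to 4 narrower without 1 library, and the title series gave 1 wider without those 2 libraries and 0 to 1 without 1 library. Region by region, strength and width were followed through the alternatives only over gene starts or ends. The H2-D1 region at 35274281 and the Nlrc5 regions at 94417052 and 94442920 were not among them. Among the regions followed, signs turned only for widths that did not pass: Psmb10 (-0.0082 on the log2 scale as reported, 0.096 centred, 0.16 in plain titles, -0.14 to 0.035 without 1 library), Tap1 with Psmb9 (0.018 centred, 0.021 in plain titles) and Tap2 (0.24 in plain titles). The cause of these shifts was not tested. With the title number of lettered libraries as a replicate block, 0 class I regions passed in migDC1 or DN migDC against migDC2, but the smallest p possible there is 0.125, so this fit could pass none and says nothing of the result; the number is all that these libraries share. Regions missing from short lists cannot be told apart from closed ones.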
